A study of Mus musculus with 2 samples.

Results

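The data described are the levels of 9 genes of the prostaglandin E2 pathway in the temporomandibular joint (TMJ) of the mouse, out of 32285 genes in the tables. They were chosen by symbol, and each symbol stood for 1 gene in both libraries. The genes are the cyclooxygenases Ptgs1 and Ptgs2, the prostaglandin E synthases Ptges and Ptges3, the receptors Ptger2, Ptger3 and Ptger4, the breakdown enzyme Hpgd and the prostacyclin synthase Ptgis. Single-cell RNA sequencing (scRNA-Seq) was carried out on 2 libraries, 1 for each condition. Both came from wild-type female C57BL/6 mice, which received 10 µL of PBS or of complete Freund's adjuvant (CFA, 5 mg/mL), an oil emulsion with killed mycobacteria that induces inflammation, in both TMJs at 8 weeks of age. Tissue was taken 3 weeks later from the joint (condyle and temporal bone with disc, ligament and muscle), digested, and depleted of CD45+ immune cells with magnetic beads, a step that can itself set how many immune cells a library holds. The labels give the mice an age of 8 to 10 weeks, whereas the methods give injection at 8 weeks and tissue 3 weeks later. With 1 library per condition there was no replicate, so no difference between PBS and CFA could be tested, and intervals cover counting error only.

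Prostaglandin E2 is made in 2 steps from arachidonic acid, which cyclooxygenases turn into prostaglandin H2 and prostaglandin E synthases into the final lipid. It acts on neighbouring cells through 4 receptors, EP1 to EP4, and is taken up and oxidised by Hpgd. In joints it is known as a mediator of pain, swelling and bone turnover, and the cyclooxygenases are the targets of nonsteroidal anti-inflammatory drugs.

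The PBS table held 7671 barcodes and 51146169 unique molecular identifiers (UMIs, each standing for 1 captured transcript), and the CFA table held 5709 barcodes and 53517206 UMIs. Limits of at least 500 genes, at most 10% mitochondrial and at most 1% hemoglobin UMIs left 2667 PBS and 4014 CFA cells, with a median of 7022 and 6509.5 UMIs. The hemoglobin limit alone removed 3178 PBS but 339 CFA barcodes, and the share of deposited Ptgs2 UMIs that lay in kept cells was 69.5% for PBS and 95.5% for CFA. The libraries shared 10 barcode sequences, of which 2 were among the kept cells of both. Clustering gave 36 clusters, of which 32 were named by markers as 21 cell types and 4 stayed unnamed. The libraries differed in makeup: macrophage-like cells numbered 18 with PBS and 303 with CFA, osteoclast-like macrophages 1 and 280, and neutrophil-like cells 18 and 184, whereas sublining fibroblast-like cells numbered 335 and 201. A level is given in CPM, the usual scale of counts relative to the total, from the UMIs of a gene and of all genes summed over the cells of a type with at least 20 cells. The counts come from the 3′ ends of transcripts, and levels were compared within a gene, not between genes.

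The starts of the genes for the first steps of synthesis are shown because the level of Ptgs2 differed more than that of any other of the 9 genes between the libraries, whereas Ptgs1 and Ptges carry out the steps beside and after it. RefSeq (GRCm38.p6) gave a window for 8 of the 9 genes. Each window below runs 5′ to 3′ on the gene's strand from 250 bases before the start to 30 bases after it, with the matches to 5 searched words in capitals. The windows are chr2:36230176-36230455 on the plus strand for Ptgs1, chr1:150099781-150100060 on the plus strand for Ptgs2 and chr2:30903268-30903547 on the minus strand for Ptges.
Ptgs1: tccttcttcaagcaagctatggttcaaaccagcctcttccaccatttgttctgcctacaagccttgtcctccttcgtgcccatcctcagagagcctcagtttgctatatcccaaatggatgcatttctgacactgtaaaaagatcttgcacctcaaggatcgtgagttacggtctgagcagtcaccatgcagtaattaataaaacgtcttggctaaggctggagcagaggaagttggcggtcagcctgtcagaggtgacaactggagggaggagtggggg
Ptgs2: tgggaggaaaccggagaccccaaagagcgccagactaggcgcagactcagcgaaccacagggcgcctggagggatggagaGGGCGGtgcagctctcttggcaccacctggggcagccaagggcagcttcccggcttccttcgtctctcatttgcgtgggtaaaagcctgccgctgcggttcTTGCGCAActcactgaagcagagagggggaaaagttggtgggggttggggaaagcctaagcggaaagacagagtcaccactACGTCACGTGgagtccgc
Ptges: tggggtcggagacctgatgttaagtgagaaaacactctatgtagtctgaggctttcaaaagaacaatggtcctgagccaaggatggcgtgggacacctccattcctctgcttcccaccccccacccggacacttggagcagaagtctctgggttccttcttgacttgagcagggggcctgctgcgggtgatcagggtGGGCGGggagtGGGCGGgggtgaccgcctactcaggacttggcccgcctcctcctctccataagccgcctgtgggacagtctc
The words searched on both strands were the C/EBP palindrome TTGCGCAA, the cyclic AMP response element part ACGTCA, the E-box CACGTG and the GC box GGGCGG. The TATA box TATAAA was searched on the gene's strand only. The Ptgs2 window held GGGCGG at -170, TTGCGCAA at -69, and ACGTCA at 12 overlapping CACGTG at 16, counted from the start. The Ptges window held GGGCGG at -53 and -42, and its RefSeq start lies inside the longer gene of the GENCODE annotation. The Ptgs1 window held none of the 5 words, which says only that these letters are not in this window. Over 32851 windows of the same length, TTGCGCAA was found in 0.18%, ACGTCA in 7.26%, CACGTG in 6.79%, GGGCGG in 34.7% and TATAAA, on the gene's strand only, in 8.02%. Such matches describe the sequence and are not evidence of binding.

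Ptgs2, the inducible cyclooxygenase (ENSMUSG00000032487, chr1:150100031-150108227, plus strand), stood at 12.7 CPM over all kept cells of the PBS library and at 104 CPM over those of the CFA library. These levels rest on 346 and 4627 UMIs, and 121 PBS cells (4.54%) and 740 CFA cells (18.4%) held at least 1. The cells that held the transcript differed between the libraries. In the PBS library, fibroblast types held 43.1% of the Ptgs2 UMIs and myeloid types 18.8%. In the CFA library, myeloid types held 83.6% and fibroblast types 3.72%. Unnamed clusters were not counted in these classes and held 24.9% with PBS and 8.99% with CFA. In the PBS library 58 of the 346 UMIs lay in an unnamed cluster led by genes of early granulocytes and monocytes. The 18.8% therefore leaves out cells with myeloid markers. The level over a whole library moves with its cell makeup, and more cells of a type and more transcript per cell can be told apart only within types. Some types pooled several clusters whose mix differed between the libraries, so a ratio within such a type can also move with that mix.

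**Figure D1:**
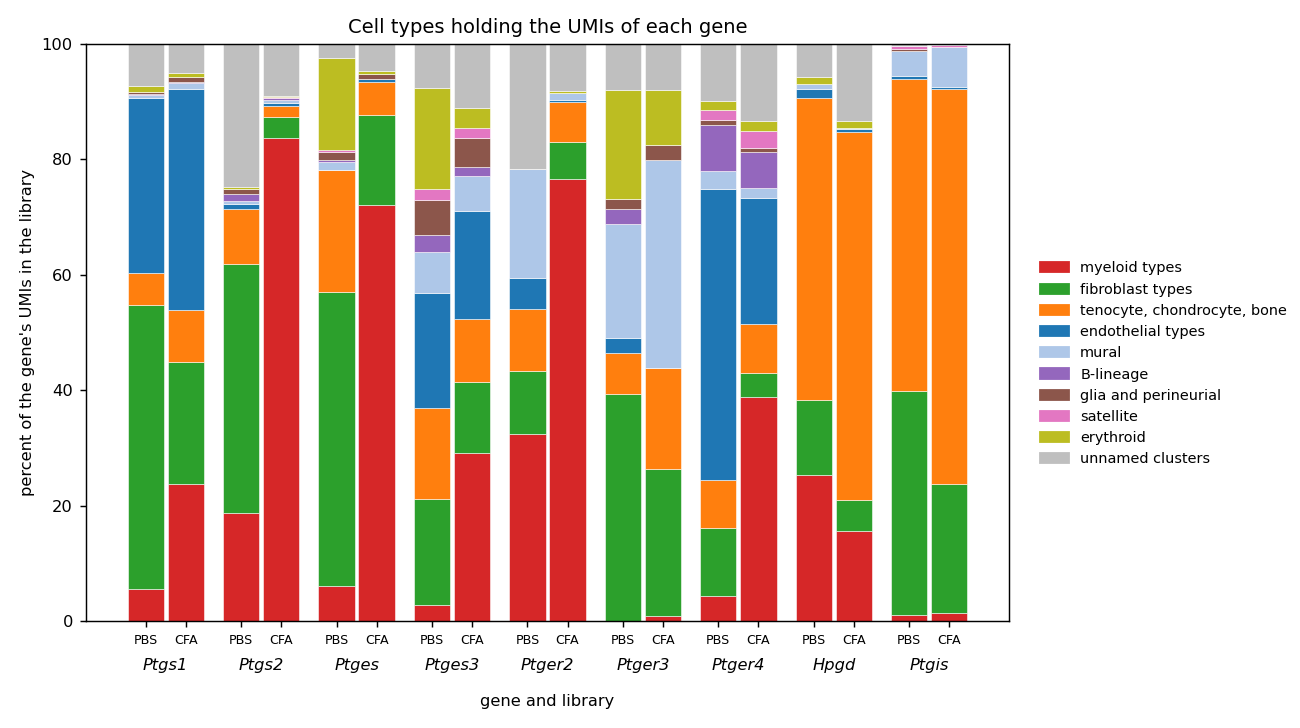
Share of each gene's UMIs (percent, vertical axis) held by each class of cells in the PBS and the CFA library. For Ptgs2 the myeloid types (red) held 18.8% of the UMIs with PBS and 83.6% with CFA, and for Ptgis the tenocyte, chondrocyte and bone types (orange) held 54.1% and 68.4%. Unnamed clusters (grey), some with myeloid markers, are outside these classes and held 24.9% and 8.99% of the Ptgs2 UMIs.

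In the CFA library the highest Ptgs2 level was in neutrophil-like cells, at 648 CPM (95% Poisson interval 589 to 711). Macrophage-like cells followed at 367 CPM (349 to 386) and osteoclast-like macrophages at 185 CPM (177 to 194). The intervals of these 3 types did not overlap, so their order was larger than counting error. It depended on the clustering. With log-normalized counts and no integration neutrophil-like cells had 289 CPM and macrophage-like cells 369 CPM. No immature neutrophil-like class was named there, and the neutrophil-like class held 296 CFA cells against 184, so the 289 CPM is of another set of cells. At a resolution of 0.8 no neutrophil-like class was named. A UMI was found in 118 of 184 neutrophil-like, 181 of 303 macrophage-like and 189 of 280 osteoclast-like cells. After each cell was thinned to 1000 UMIs, the shares were 40.2%, 21.4% and 17.5%, the same order as the levels. In B-lineage-like cells, which serve as the background for free RNA, 4 of 147 CFA cells (2.72%) held a UMI and 0 of 143 after thinning (95% Clopper-Pearson upper bound 2.55%). Median depth was 2882 UMIs in neutrophil-like cells, 12342 in macrophage-like cells, 31014 in osteoclast-like macrophages and 4036 in B-lineage-like cells. In the PBS library these myeloid types were too few for a level, but they were not without the transcript. There, 5 of 18 macrophage-like cells held 40 UMIs of Ptgs2 and 7 of 18 neutrophil-like cells held 22, whereas the 1 osteoclast-like macrophage held 0. Hence the CFA to PBS difference within these 3 types was not measured.

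An unnamed cluster was led by Prtn3, Ctsg, Mpo and Elane, genes of early granulocytes, and by Ly6c2, F13a1, Ccr2 and Plac8, markers of monocytes. It held 79.3 CPM of Ptgs2 in the PBS (58 UMIs) and 123 CPM in the CFA library (297 UMIs). Another unnamed cluster, led by Siglech, Stat4 and Flt3, held 46.6 and 80.4 CPM. A small one led by Prss34, Mcpt8, Cpa3 and Fcer1a held 49 Ptgs2 UMIs in 10 of its 12 CFA cells and 4 UMIs among 7 PBS cells. Unnamed clusters held 24.9% of the PBS and 8.99% of the CFA Ptgs2 UMIs. In the cluster led by Siglech, Ptgs1 had 46 UMIs in the PBS and 10 in the CFA cells, but 34 of the 46 came from 1 cell. Megakaryocyte or platelet markers there summed to 1277 and 35.5 CPM, and their part was not tested.

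Types with at least 30 cells in each library allowed a CFA to PBS ratio of Ptgs2, given where at least 20 UMIs were counted. It was 13.7 (95% interval 4.60 to 67.2) in immature neutrophil-like cells, from 3 UMIs in 54 PBS cells (4.55 CPM) and 149 UMIs in 168 CFA cells (62.3 CPM), and lay between 3.24 and 39.4 under other processing. It was 8.62 (2.09 to 76.0) in mural-like cells, the smooth muscle and pericytes around vessels, from 2 UMIs in 180 PBS and 20 UMIs in 222 CFA cells, 9 of the 20 in 1 cell. Without the highest doublet scores, which took 29 of these CFA cells, 2 and 11 UMIs were left in mural-like cells, too few for a ratio. Among the named classes fibroblast types held the largest share of the PBS transcript, and their levels differed less between the libraries. Pi16 fibroblast-like cells stood at 32.8 CPM in the PBS and 40.6 CPM in the CFA library (ratio 1.24, 0.904 to 1.72), and sublining fibroblast-like cells at 24.8 and 20.4 CPM (ratio 0.821, 0.560 to 1.19). Tenocyte-like cells had a ratio of 1.14 (0.545 to 2.35) and osteoblast or osteocyte-like cells 1.08 (0.460 to 2.73). Each of these 4 intervals includes 1. The last is not stable, since 11 of its 18 CFA UMIs came from 1 cell, and without the highest doublet scores 9 PBS and 1 CFA UMIs were left. In chondrocyte-like cells 4 UMIs were counted among 89 PBS cells (2.27 CPM) and 56 among 85 CFA cells (29.4 CPM), a ratio of 12.95 (4.79 to 49.2). The 56 UMIs came from 13 cells, of which 2 held 50%. When the cells with the 5% highest doublet scores were left out, 23 of the 85 CFA cells were lost from this type against 4 of the 89 PBS cells, and 13 Ptgs2 UMIs were left against 3, too few for a ratio. After thinning to 1000 UMIs, 0 of the 85 CFA cells held the transcript, and after thinning to 5000 UMIs 4 of 79 CFA and 0 of 75 PBS cells did. Macrophage markers in these chondrocyte-like cells summed to 0 CPM in the PBS library (0 of 7 markers found) and 18.9 CPM in the CFA library (5 of 7), and in immature neutrophil-like cells to 124 and 678 CPM. In mural-like cells the neutrophil markers summed to 73.7 and 2080 CPM. The part of these cells in the Ptgs2 ratios was not tested.

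**Figure D2:**
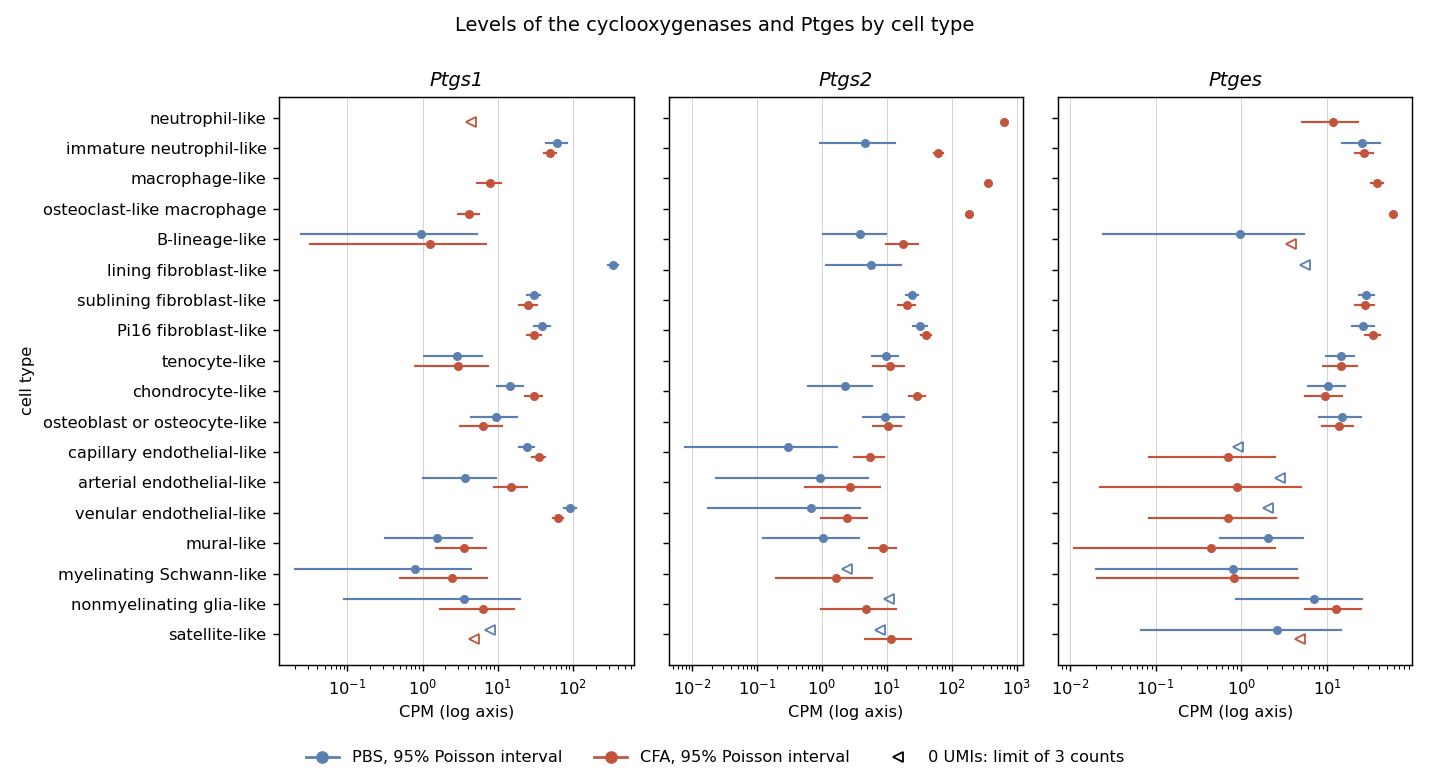
Levels of Ptgs1, Ptgs2 and Ptges (CPM, log axis) by cell type in the PBS (blue) and CFA (red) libraries with 95% Poisson intervals. Triangles mark 0 UMIs at the limit of 3 counts, and a type with under 20 cells in a library has no point there. Erythroid-like cells and unnamed clusters are not shown. The highest Ptgs2 level, 648 CPM in CFA neutrophil-like cells, lies far from the PBS fibroblast levels of 24.8 and 32.8 CPM.

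Ptgs2 is also an early response gene that tissue digestion can switch on, so 13 such genes were set beside it. In chondrocyte-like cells 0 of the 13 differed 2-fold or more between the libraries, against 12.3% of all genes, with a median log2 ratio of 0.43 against -0.10 over all genes. In immature neutrophil-like cells 2 of 12 were at least 2-fold higher, Ier3 (ratio 2.86) and Zfp36 (2.43), and 2 were lower, against 19.7% of all genes past 2-fold. In Pi16 fibroblast-like cells 0 of 13 were, against 13.8%.

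Ptgs1, the constitutive cyclooxygenase (ENSMUSG00000047250, chr2:36230426-36252272, plus strand), shared the fibroblast types and the immature neutrophil-like cells with Ptgs2, but its highest levels lay elsewhere. Its level was 26.9 CPM in the PBS and 18.2 CPM in the CFA library. Lining fibroblast-like cells, which coat the synovial surface, had the highest PBS level, at 340.0 CPM (292 to 393), with a UMI in 27 of 30 cells. These 30 cells held 24.9% of the library's Ptgs1 UMIs, and the 6 lining fibroblast-like cells of the CFA library, too few for a level, all held the transcript, with 19 UMIs in sum. Venular endothelial-like cells followed at 91.7 CPM (76.9 to 109) in the PBS library, with no overlap with the lining interval. They led the CFA library at 63.7 CPM (54.8 to 73.6), where their interval overlapped that of immature neutrophil-like cells at 50.2 CPM (41.6 to 60.02). Mature neutrophil-like cells of the CFA library held 0 UMIs, which allows a level of up to 4.40 CPM, although the same cells had the highest Ptgs2 level. Macrophage-like cells and osteoclast-like macrophages had 7.82 and 4.18 CPM of Ptgs1.

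Across the vessel tree Ptgs1 differed in opposite directions. It was lower in CFA venular endothelial-like cells (ratio 0.695, 0.553 to 0.874) and higher in capillary ones (1.46, 1.08 to 1.97), from 24.4 to 35.5 CPM. In arterial endothelial-like cells 4 UMIs with PBS and 17 with CFA gave a ratio of 4.06 (1.33 to 16.6). In chondrocyte-like cells Ptgs1 stood at 14.8 and 30.5 CPM, a ratio of 2.06 (1.28 to 3.42), and at 14.4 and 33.8 CPM without the highest doublet scores. In Pi16 and sublining fibroblast-like cells, immature neutrophil-like cells and osteoblast or osteocyte-like cells the ratio lay between 0.659 and 0.839, and each interval includes 1. In sublining cells it ran from 0.435 with at least 1000 genes to 1.33 with cells classed singly, and in osteoblast or osteocyte-like cells it was 0.191 without the hemoglobin limit.

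Ptges (ENSMUSG00000050737, chr2:30889471-30929863, minus strand) encodes the membrane-bound prostaglandin E synthase that often acts with Ptgs2. It stood at 10.8 CPM (293 UMIs) in the PBS and 24.6 CPM (1095 UMIs) in the CFA library. In the CFA library osteoclast-like macrophages held 50.6% of its UMIs, at 59.3 CPM (54.5 to 64.5) with a UMI in 168 of 280 cells, and macrophage-like cells followed at 38.4 CPM (32.7 to 44.8). The order was therefore not that of Ptgs2, since neutrophil-like cells had 11.7 CPM of Ptges from 8 UMIs. Within most types that allowed a ratio the levels lay close together. Sublining fibroblast-like cells had 28.8 and 27.6 CPM, Pi16 fibroblast-like cells 26.7 and 34.2 CPM and immature neutrophil-like cells 25.8 and 27.2 CPM in the PBS and CFA library. Over 6 types the ratios ran from 0.9248 to 1.28, with every interval including 1. Erythroid-like cells differed from these, with 15.8 CPM in PBS and 6.33 CPM in CFA cells (ratio 0.401, 0.140 to 0.939). Their 47 PBS UMIs came from 7 of 93 cells, of which 2 held 50%, with 16 UMIs in 1 cell. Endothelial types held almost none, with 0 UMIs with PBS and 6 with CFA.

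Since both enzymes are needed in turn, their presence in the same cell was counted after thinning to 5000 UMIs. In CFA macrophage-like cells Ptges was found in 26 of 132 cells with Ptgs2 (19.7%) and in 5 of 126 cells without it (3.97%). In CFA osteoclast-like macrophages it was found in 28 of 123 cells with Ptgs2 (22.8%) and in 37 of 153 without it (24.2%). Il1b, which encodes the cytokine interleukin-1 beta, was found in 118 of the 132 macrophage-like cells with Ptgs2 (89.4%) and in 76 of the 126 without (60.3%). In osteoclast-like macrophages it was found in 104 of 123 (84.6%) and 100 of 153 (65.4%). The cells of each type came from 1 library and the shares are a description.

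Ptges3 (ENSMUSG00000071072, chr10:128058954-128077272, plus strand) encodes the cytosolic synthase, better known as the Hsp90 cochaperone p23. It was the most evenly spread of the genes, found in 60.2% of the cells from PBS joints and 61.2% of those from CFA joints, and with a library level of 165 and 162 CPM. Its levels ran from 77.0 to 269 CPM over types and unnamed clusters with at least 20 cells, and its ratios from 0.819 to 1.38.

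**Figure D3:**
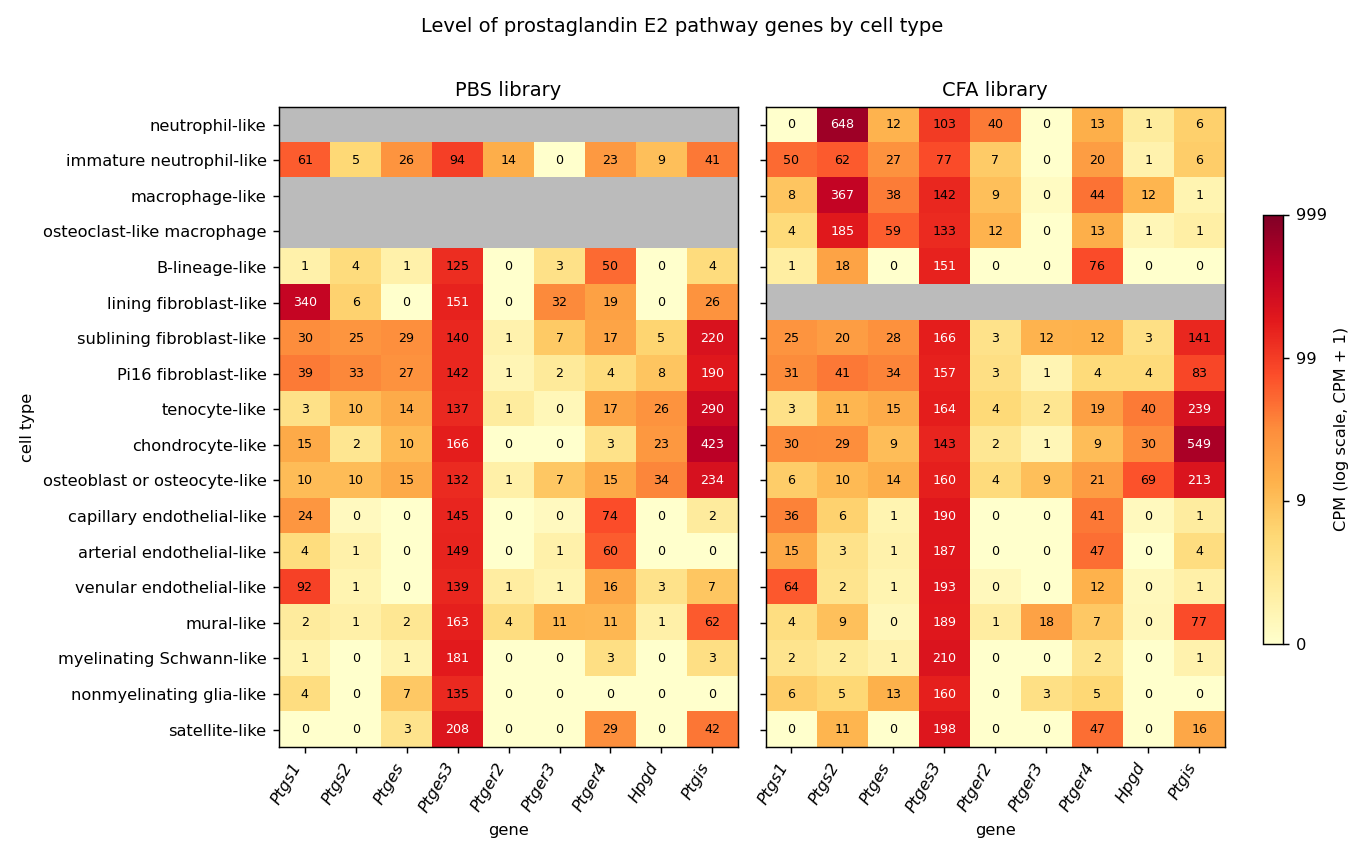
Level of each gene (CPM, colour on a log scale of CPM + 1, number in the cell rounded) by cell type in the PBS (left) and CFA (right) library. Types with under 20 cells in a library are grey. Unnamed clusters and erythroid-like cells are not shown, although the latter had the highest Ptges3 level of the named types (266 CPM with PBS and 264 CPM with CFA). Ptges3 is spread over all types shown, whereas Ptgs2 is concentrated in the upper myeloid types of the CFA library and Ptgis in skeletal and fibroblast types of both.

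Of the receptors, Ptger4 (EP4, ENSMUSG00000039942, chr15:5206661-5244187, minus strand), which raises cyclic AMP, had the most UMIs, 661 with PBS and 951 with CFA, or 24.3 and 21.4 CPM. In the PBS library capillary endothelial-like cells held 37.2% of them, at 74.1 CPM (65.2 to 84.0), and arterial endothelial-like cells had 59.6 CPM (45.9 to 76.1), an interval that overlaps. In capillary endothelial-like cells the CFA level was 40.7 CPM (33.7 to 48.7), a ratio of 0.549 (0.437 to 0.686). A UMI was found in 148 of 495 PBS cells (29.9%) and 89 of 696 CFA cells (12.8%), and after thinning to 1000 UMIs in 34 of 486 and 27 of 667. Myelinating Schwann-like cells, the background here, had shares of 1.53% and 0.929%. Depth differed too, with a median of 4954 UMIs in PBS and 3740 in CFA capillary cells. Early response genes in the same cells were also lower, among them Fos (ratio 0.465), Junb (0.463), Ier2 (0.400) and Nr4a1 (0.283), whereas Hspa1a (4.59) and Hspa1b (5.75) were higher. In all 6 of 13 were past 2-fold, against 12.4% of all genes. The part of these genes in the Ptger4 ratio was not tested.

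Ptger4 was also found in B-lineage-like cells, at 49.7 and 76.2 CPM (ratio 1.53, 1.04 to 2.27), and in macrophage-like cells of the CFA library at 44.3 CPM (38.2 to 51.1). Osteoclast-like macrophages had 13.3 CPM (11.04 to 15.8), below the interval of macrophage-like cells. In chondrocyte-like cells 5 PBS and 18 CFA UMIs gave a ratio of 3.33 (1.19 to 11.5), and 8 of the 18 came from 1 cell. Without the highest doublet scores 5 and 13 UMIs were left there, under the limit for a ratio. In the other types, satellite-like (muscle stem) cells among them, the ratio lay between 0.656 and 1.64 with intervals that include 1, except in erythroid-like cells. With cells classed singly the arterial ratio of Ptger4 was 2.55, against 0.792.

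Ptger2 (EP2, ENSMUSG00000037759, chr14:44988195-45003820, plus strand), the other receptor that raises cyclic AMP, was scarce, at 1.36 CPM (37 UMIs) in the PBS and 5.58 CPM (248 UMIs) in the CFA library. In the CFA library it followed the myeloid types. Neutrophil-like cells had 39.6 CPM (26.1 to 57.6), osteoclast-like macrophages 11.7 CPM (9.58 to 14.1) and macrophage-like cells 9.003 CPM (6.37 to 12.4), and the last 2 could not be told apart by their intervals. Osteoclast-like macrophages held 44.0% of its CFA UMIs. Capillary endothelial-like cells held 0 UMIs in both libraries, which allows up to 0.904 CPM in the PBS and 1.03 CPM in the CFA library. The one type with enough UMIs for a ratio was immature neutrophil-like cells, with 0.491 (0.204 to 1.26) from 9 and 16 UMIs.

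Ptger3 (EP3, ENSMUSG00000040016, chr3:157566892-157645888, plus strand), which lowers cyclic AMP, was found outside the myeloid types. Its library level was 4.12 CPM (112 UMIs) in the PBS and 2.57 CPM (114 UMIs) in the CFA library. Lining fibroblast-like cells led the PBS library with 31.8 CPM (18.5 to 50.8) from 17 UMIs in 8 of 30 cells. Mural-like cells had 11.3 and 18.1 CPM (ratio 1.61, 0.934 to 2.83) and sublining fibroblast-like cells 6.85 and 11.8 CPM (ratio 1.72, 0.949 to 3.13) in the PBS and CFA library, and both intervals include 1. In the CFA library 10 of the 41 UMIs in mural-like cells and 11 of the 26 in sublining cells came from 1 cell each. Osteoclast-like macrophages of the CFA library held 0 UMIs, which allows a level of up to 0.321 CPM. EP2 and EP3 transcripts thus had their highest CFA levels in different types, neutrophil-like and mural-like cells.

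Hpgd (ENSMUSG00000031613, chr8:56294585-56321043, plus strand), the enzyme that inactivates prostaglandin E2, stood at 9.01 CPM in the PBS and 8.24 CPM in the CFA library. Tenocyte, chondrocyte and bone types held 52.2% of its UMIs with PBS and 63.7% with CFA. Osteoblast or osteocyte-like cells had 33.9 CPM (23.2 to 47.8) and 69.1 CPM (57.3 to 82.5), a ratio of 2.04 (1.37 to 3.11) that was 1.89 when the library scaling was the median ratio of genes. The 121 CFA UMIs came from 18 of 114 cells, of which 4 held 50%, and with a mitochondrial limit of 20% the ratio was 4.02. The type pooled a cluster led by Bglap and Bglap2 (35 PBS and 28 CFA cells) and another led by Dok6 and Gpc5 (37 PBS and 86 CFA cells). Macrophage markers in these cells summed to 0 CPM in the PBS and 73.1 CPM in the CFA library. The part of the cluster mix and of the macrophage markers in the ratio was not tested. Tenocyte-like cells had 26.4 and 40.3 CPM (ratio 1.53, 1.03 to 2.26), although the transcript was in 27 of 152 PBS and 9 of 111 CFA cells, 1 of which held 20 of the 55 CFA UMIs, so fewer cells with more UMIs each carried the higher level. In chondrocyte-like cells the ratio was 1.29 (0.846 to 1.97), but 0.515 without the highest doublet scores, when 41 PBS and 15 CFA UMIs were left. In the PBS library 14 of 18 macrophage-like cells held 52 UMIs, and in the CFA library 19 of 303 held 49 (11.6 CPM). With 18 PBS cells no ratio was computed.

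Ptgis (ENSMUSG00000017969, chr2:167191805-167240604, minus strand) turns prostaglandin H2 into prostacyclin and not into prostaglandin E2, so it draws on the same precursor. Its level was 107 CPM (2900 UMIs) in the PBS and 57.3 CPM (2548 UMIs) in the CFA library. Chondrocyte-like cells had the highest level in both, at 423 CPM (393 to 454) and 549 CPM (516 to 583), a ratio of 1.298 (1.18 to 1.43). Their share of all Ptgis UMIs was 25.7% for PBS and 41.0% for CFA. Tenocyte-like cells followed with 290.1 and 239 CPM, and osteoblast or osteocyte-like cells with 234 and 213 CPM, whose intervals overlapped those of tenocyte-like cells in the CFA library only. When 8 PBS cells with high doublet scores were left out of the osteoblast or osteocyte-like cells, their PBS level was 128 CPM, below that of sublining (214 CPM) and Pi16 (189 CPM) fibroblast-like cells, so the third place was lost.

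In the fibroblast types Ptgis was lower in the CFA library. Pi16 fibroblast-like cells had 189.9 and 83.2 CPM (ratio 0.438, 0.371 to 0.516), and a UMI was found in 94 of 134 and 86 of 160 cells. The ratio was 0.679 with cells classed one by one instead of by cluster. Sublining fibroblast-like cells had 220.1 and 141 CPM (ratio 0.640, 0.560 to 0.732). Tenocyte-like cells showed a smaller difference (0.824, 0.718 to 0.944), mural-like cells had a ratio of 1.23 (0.969 to 1.56) and osteoblast or osteocyte-like cells 0.911 (0.769 to 1.08). Without the highest doublet scores the last turned to 1.46 (1.14 to 1.89), from 87 PBS and 249 CFA UMIs. The mix of the clusters pooled in that type, given above, differed between the libraries. After thinning to 1000 UMIs the shares of Pi16 fibroblast-like cells with a UMI were 11.2% and 10.0%. Those of sublining cells were 13.9% and 13.5%, so the lower levels were not seen in shares at that depth. They were seen at 5000 UMIs, where 73 of 132 Pi16 fibroblast-like cells kept a Ptgis UMI with PBS against 47 of 159 with CFA. Sublining cells that kept one numbered 133 of 278 with PBS against 46 of 137 with CFA. Macrophage markers in Pi16 fibroblast-like cells summed to 2.78 CPM in the PBS and 54.7 CPM in the CFA library, and neutrophil markers to 1114 and 115 CPM. Their part in the Ptgis ratio was not tested. In immature neutrophil-like cells the ratio was 0.153 (0.0758 to 0.299), but 17 of the 27 PBS UMIs came from 1 cell, and 4 PBS and 1 CFA UMIs were left without the highest doublet scores. Fibroblast markers in these cells summed to 3195 CPM in the PBS and 426 CPM in the CFA library. In satellite-like cells 16 and 10 UMIs gave a ratio of 0.388 (0.158 to 0.9104).

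**Figure D4:**
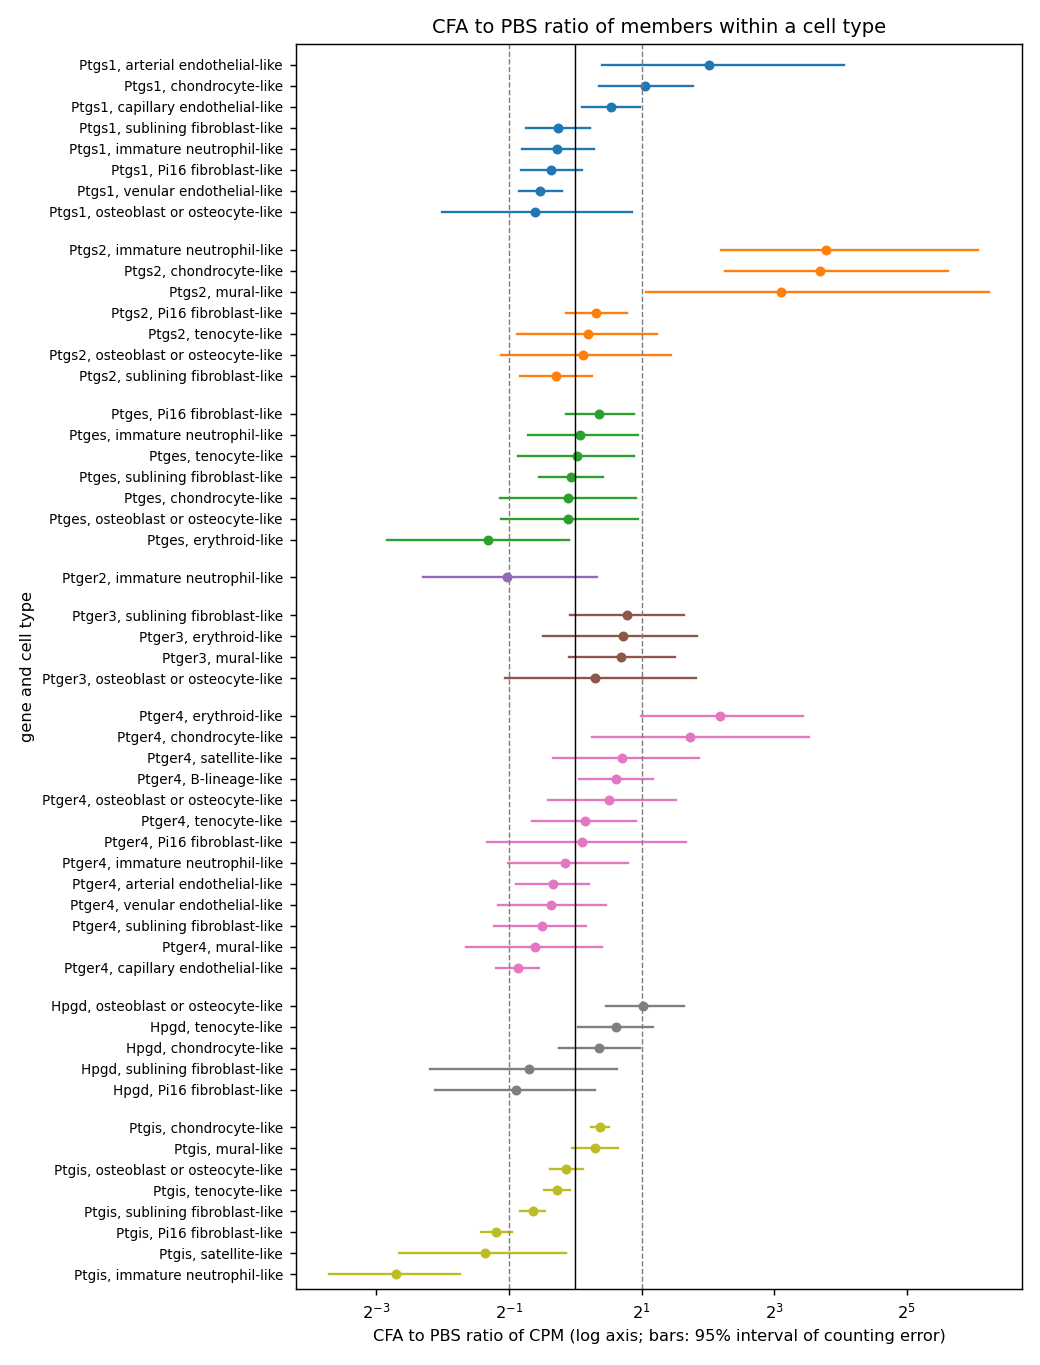
CFA to PBS ratio of CPM (log axis) of 8 of the genes in the named cell types that allowed one, with 95% intervals of counting error. Dashed lines mark 2-fold in either direction. Ptgs2 holds the 3 highest ratios, 13.7, 12.95 and 8.62, and Ptgis the lowest, 0.153.

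Over the 9 genes 68 ratios could be given in named types, of which 8 were at least 2-fold higher and 5 at least 2-fold lower in the CFA library. Of the 8, Ptgs2 and Ptger4 in chondrocyte-like cells and Ptgs2 in mural-like cells had too few UMIs for a ratio without the highest doublet scores. To set this against all genes, the share of genes past 2-fold in either direction was computed for each type by the same limits. In chondrocyte-like cells 3 of 7 were higher, Ptgs2, Ptger4 and Ptgs1, against 12.3% of all genes in either direction, with a median log2 ratio of 0.38 against -0.10. In immature neutrophil-like cells Ptgs2 was higher and Ptger2 and Ptgis lower, 3 of 7, against 19.7% of all genes. In erythroid-like cells Ptger4 was higher and Ptges lower, 2 of 4, against 28.9%, with a Ptger4 ratio of 0.614 without the hemoglobin limit, in a type whose median depth was 18331 UMIs with PBS and 2322.5 with CFA.

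One gene was past 2-fold in each of 5 further types. These were Ptgs2 among 5 in mural-like cells (8.62% of all genes), Ptgs1 among 3 in arterial endothelial-like cells (11.4%), Hpgd among 8 in osteoblast or osteocyte-like cells (14.8%), Ptgis among 7 in Pi16 fibroblast-like cells (13.8%) and Ptgis among 3 in satellite-like cells (15.3%). No gene of the pathway set was past 2-fold in the other types. This held for 8 ratios in sublining fibroblast-like cells (10.6% of all genes), 6 in tenocyte-like cells (10.2%), 3 each in capillary (12.4%) and venular (12.2%) endothelial-like cells, 2 in B-lineage-like cells (8.69%), and 1 each in myelinating Schwann-like (8.98%) and nonmyelinating glia-like cells (19.1%). In most of these types the small counts lie near what the share of all genes would give.

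Of 27 other genes of prostanoid handling 25 were in the tables, and several were found in the same types as the 9. Pla2g4a, the phospholipase that frees arachidonic acid, had 94.5 CPM in macrophage-like cells and 94.97 CPM in osteoclast-like macrophages of the CFA library. Tbxas1, the thromboxane synthase, had 249 and 261 CPM there. Slco2a1, which carries prostaglandins into cells, had 216 CPM in PBS and 239 CPM in CFA venular endothelial-like cells. Ptger1, which encodes EP1, had 37 and 43 UMIs over the whole libraries.

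In Pi16 fibroblast-like cells 3 of 15 of these genes were at least 2-fold higher, Tbxas1 (ratio 4.03), the prostacyclin receptor Ptgir (2.63) and the exporter Abcc4 (2.03), and Prxl2b was lower (0.378), against 13.8% of all genes past 2-fold. In sublining fibroblast-like cells 2 of 15 were higher, Tbxas1 (3.35) and Abcc4, which stood at 16.8 CPM in the PBS and 49.4 CPM in the CFA library (2.93), against 10.6% of all genes. Macrophage markers summed to 2.57 and 29.9 CPM in these sublining cells and, as given above, to 2.78 and 54.7 CPM in Pi16 fibroblast-like cells, and their part in the Tbxas1 ratios was not tested. In capillary endothelial-like cells 2 of 12 were lower, Ptges2 (0.220), a further prostaglandin E synthase, and the thromboxane receptor Tbxa2r (0.477), against 12.4% of all genes. In chondrocyte-like cells 1 of 12 was lower, the prostaglandin F receptor Ptgfr, with 27 UMIs with PBS and 0 with CFA, at least 9.73-fold lower with the CFA count set to the limit of 3, against 12.3% of all genes. In immature neutrophil-like cells 2 of 11 were higher, Hpgds with 0 and 31 UMIs (at least 2.85-fold with the PBS count set to 3) and Tbxas1 (2.51), against 19.7% of all genes, and macrophage markers summed to 124 and 678 CPM.

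In venular endothelial-like cells 2 of 12 were higher, Pla2g4a (2.05) and Ptgr1 (2.05), and 4 lower, Prxl2b (0.293), Cbr1 (0.312), Ptges2 (0.458) and Tbxa2r (0.466), 6 of 12 against 12.2% of all genes. In osteoblast or osteocyte-like cells Ptgr2 was higher (2.08) and Ptgfr lower (0.456) among 14 (14.8% of all genes), in mural-like cells Slco2a1 was lower (0.481) among 12 (8.62%), in tenocyte-like cells Prxl2b (0.246) among 11 (10.2%) and in arterial endothelial-like cells Cbr1 (0.413) among 7 (11.4%). In satellite-like cells 3 of 5 were lower, Ptgds (0.266), Prxl2b (0.366) and Cbr1 (0.444), against 15.3% of all genes. In nonmyelinating glia-like cells 2 of 7 were higher, Ptgds with 0 and 38 UMIs (at least 5.66-fold with the PBS count set to 3) and Ptgr1 (2.01), and Pla2g4a was lower (0.378), against 19.1% of all genes. That type pooled a cluster led by Cadm2 and Cdh19 (43 PBS and 38 CFA cells) and another led by Fabp7 (3 PBS and 16 CFA cells). The part of this mix in the ratios was not tested. In erythroid-like cells Tbxas1 was higher (13.9) and Slco2a1 lower (0.165) among 14, against 28.9% of all genes. Macrophage markers in these cells summed to 7.06 CPM in the PBS and 201 CPM in the CFA library and osteoclast-like macrophage markers to 92.8 and 675 CPM, and their part in the Tbxas1 ratio was not tested. In B-lineage-like and myelinating Schwann-like cells 0 of 7 and 0 of 10 were past 2-fold, against 8.69% and 8.98% of all genes.

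The genes whose level ran most like that of each of the 9 were found over 34 points, each a named type in 1 of the 2 libraries, by Pearson's r of log2(CPM + 10) among 14711 genes. Types of 1 library share its depth and preparation, so r is given as a description without a p. For Ptgs2 the highest r were those of Tlr2 (0.936), Ly6i (0.917) and Nlrp3 (0.90997), and for Ptger2 those of Fpr3 (0.937), Spatc1 (0.911) and Cd300lb (0.911). For Ptges they were Pla2g4a (0.863), C3 (0.818) and Ctsh (0.801), and for Ptgs1 they were lower, S100a13 (0.733), Pde8a (0.722) and Anxa7 (0.703). For Ptges3 the list held Nop14 (0.876), Eif4g1 (0.833) and Eif2b3 (0.817), for Ptger3 Ccdc170 (0.862), Ccdc3 (0.854) and Epb41l1 (0.778), and for Ptger4 Rftn1 (0.766), Adgre5 (0.753) and Ccdc69 (0.753). Hpgd ran most like Galnt5 (0.912), Omd (0.9102) and Sp7 (0.905), the last a transcription factor of osteoblasts. Ptgis ran most like Twist1 (0.945), Dnm3os (0.923) and Ror2 (0.923). Among the 9 genes r was 0.784 for Ptgs2 with Ptger2, 0.755 for Hpgd with Ptgis and 0.617 for Ptgs2 with Ptges, and -0.056 for Ptgs1 with Ptgs2.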

How the data were processed

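The deposited values are raw UMI counts for each gene in each filtered barcode, which the authors obtained with Cell Ranger 7.0.1 and the mouse genome GRCm38 (mm10). The sources used here do not give its annotation release. Gene positions were taken from GENCODE for GRCm38. The methods state tissue of n = 3 per group, and whether it was pooled into the 1 library per condition is not stated. The 10x Genomics kit version and the digestion enzymes are given differently in the labels and in the methods. Conditions came from the labels.

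Barcodes with at least 500 genes, at most 10% mitochondrial and at most 1% hemoglobin UMIs were kept. Both libraries were normalized with SCTransform (sctransform 0.4.2) and integrated on 3000 genes in Seurat 5.3.0 (R 4.3.3), with 200 principal components and a resolution of 1.5. The 9 genes were kept out of the clustering genes. A cluster could be named where at least 3 markers of a type were found in at least 25% of its cells and were at least 2-fold higher (10 CPM added) than in the other cells. It stayed unnamed where another type had more markers among its 10 leading genes, or where it held few UMIs and none of its type's markers were among them. Thus the unnamed cluster led by Prtn3 had 6 monocyte markers, and another with few UMIs (65 PBS and 184 CFA cells) had 7 endothelial markers. Each name is a rebuilt one, written X-like. Doublets were scored with Scrublet (scanpy 1.11.5), whose automatic threshold marked 21 of 2667 PBS and 2 of 4014 CFA cells, too few to be used, so leaving out the 5% highest scores (135 and 217 cells) was an alternative.

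UMIs were summed over the cells of a type and divided by the total of those cells. Intervals were exact Poisson for levels, exact Clopper-Pearson for shares and conditional binomial for ratios (scipy 1.17.1), all at 95%. They cover counting error only. A count of 0 was given the limit of 3 counts. Ratios needed at least 30 cells in each library and 20 UMIs over both, and past the limit meant 2-fold. No test between conditions was run, since each has 1 library and cells are not replicates. Tested on simulated data of 12282 genes for the CFA to PBS ratio step, 100% of 200 genes changed 4-fold were past the limit. Of the intervals of unchanged genes, 95.1% held the true ratio. The counts were drawn as Poisson sums without cells. UMIs gathered in few cells, as found here for several ratios, were therefore not simulated, and the result does not cover them.

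The genes and lists were chosen with earlier results of these data known. Named were each of the 9 genes in each type, other pathway genes past 2-fold (at most 5 per type by size of the log ratio) or with their highest level in a type, up to 4 early response genes per type, and the 3 genes most alike in pattern. Beyond that rule, a sixth pathway gene in venular endothelial-like cells, the level of Ptger1, Hspa1a, Hspa1b and Il1b were named after their values were seen. Alternatives were other cell limits, resolutions, normalizations, scalings, doublet removal, thinning depths and ratio limits.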

Additional observations from a re-analysis of the deposited data

Results flagged for a closer look

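Ptgs1 differed between the libraries in opposite directions in 2 kinds of endothelium. Its CFA to PBS ratio was 4.06 in arterial endothelial-like cells, from 4 and 17 UMIs, and 0.695 in venular endothelial-like cells, from 135 and 183 UMIs. Ptger4 had a ratio of 4.56 in erythroid-like cells, from 11 and 16 UMIs, and 0.549 in capillary endothelial-like cells. Ptgis had a ratio of 1.298 in chondrocyte-like cells and 0.153 in immature neutrophil-like cells. Each pair was picked out because the 2 types moved in opposite directions with intervals of counting error that exclude 1. With 1 library per condition, the difference was not tested in any of the 3 pairs.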

How the results depend on the processing

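The Ptgs2 order of neutrophil-like, macrophage-like and osteoclast-like cells, and the Ptgis and Ptgs1 ratios, were recomputed with 1 choice changed at a time. With log-normalized counts and no integration the neutrophil-like class stood below macrophage-like cells (289 against 369 CPM). That class held 296 CFA cells against 184, with no immature neutrophil-like class beside it, so the same cells were not ranked. At a resolution of 0.8 there was no neutrophil-like class to rank. Taken singly, of 138 recomputed main values 96 moved by less than counting error, 42 by more, and 0 reversed, and of 490 other values 469, 19 and 2. The cause of each shift was not tested.

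With no hemoglobin limit, Ptgs2 in CFA neutrophil-like cells was 463 CPM, the osteoclast-like share of CFA Ptgs2 UMIs was 32.0% (37.4% as reported), the Ptgis ratio in sublining cells was 0.525, 13 ratios were at least 2-fold higher and 11 lower, and the Ptger4 ratio in erythroid-like cells turned to 0.614. With a mitochondrial limit of 20%, Ptgs2 in neutrophil-like cells was 833 CPM, its ratio in immature neutrophil-like cells 4.23, its osteoclast-like share 35.7%, and the Hpgd ratio in osteoblast or osteocyte-like cells 4.02. With at least 1000 genes the first 3 of these were 801 CPM, 3.86 and 39.2%. At a resolution of 0.8, Ptgs2 in macrophage-like cells was 242 CPM, the Ptgis sublining ratio 0.512, 3 ratios were lower, and the Ptger2 ratio in immature neutrophil-like cells turned to 1.03. No neutrophil-like, osteoclast-like or Pi16 class was named at that resolution. The macrophage-like class held 583 CFA cells against 303, the immature neutrophil-like class 351 against 168 and the sublining class 367 against 201. These 3 values are therefore of broader classes. With log-normalized counts and no integration, Ptgis in CFA chondrocyte-like cells was 646 CPM, the Ptgs1 venular ratio 0.521, the Ptgis sublining ratio 0.513, and 4 ratios were higher and 3 lower. No Pi16 class was named there, where the sublining class held 357 CFA cells, or with no hemoglobin limit, where it held 310. With the 9 genes allowed in clustering the osteoclast-like share was 39.5%.

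With each cell classed on its own, Ptgs2 was 346 CPM in neutrophil-like cells, 271 in macrophage-like cells and 148 in osteoclast-like macrophages, whose share was 15.3%. There Ptges in osteoclast-like macrophages was 45.0 CPM, Ptgis in chondrocyte-like cells 612 CPM, the Ptgs1 venular ratio 0.475, the Ptgis Pi16 ratio 0.679 and the Ptgs2 immature neutrophil ratio 3.24. Without the highest doublet scores Ptgis in chondrocyte-like cells was 502 CPM. As a mean over cells, Ptgs2 was 769, 338 and 243 CPM in the 3 myeloid types and Ptges 67.9 CPM in osteoclast-like macrophages. The Ptgs2 share of neutrophil-like cells was 64.1% unthinned and 50.7% at 2000 UMIs. A limit of 1.5-fold gave 14 higher and 11 lower ratios, a minimum of 50 UMIs 4 and 2, and library scaling by the median gene ratio 7 and 4, against 8 and 5. That scaling moved the median gene by 0.19 (log2) in erythroid-like, 0.11 in osteoblast or osteocyte-like and 0.11 in Schwann-like cells.

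The Ptgs2 ratio in chondrocyte-like cells lay between 10.7 and 13.9 where it could be computed. It had no value at a resolution of 0.8, with log-normalized counts, with each cell classed on its own or without the highest doublet scores. No paired analysis was possible because each condition has 1 library. For the same reason no replicate could be left out. Few UMIs limit Ptger2 and Ptger3 most.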
